A study of Mus musculus with 6 samples.

Results

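The chemokines and chemokine receptors of the mouse retina were followed after titanium dioxide nanoparticles had been injected into the eye. The genes were chosen by name: every array probe that is no control spot and whose gene name is Ccl, Cxcl, Ccr or Cxcr followed directly by a number was taken, whatever its values. This gave 64 probes of 53 gene names, out of 39429 probes and 31829 gene names on the array. Of these, 53 probes of 43 genes stood well above background in at least one dye channel on 3 or more of the 6 arrays and could be tested. All animals were male C57BL/6 mice, 8 weeks old, and received either phosphate-buffered saline (PBS) or titanium dioxide nanoparticles in the vitreous of the right eye, at a dose the labels call PTC or at 10 times PTC (10PTC). Retinas were taken 7 days later from 12 mice per group and pooled by 4, giving 3 pools per dose. Each treated pool was labelled with Cy5 and set against PBS control RNA in Cy3 on a two-colour Agilent array of 60-base probes, and the dyes were never swapped. The labels do not say how many pools the control RNA came from.

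Values are log2 of treated Cy5 over PBS Cy3, so that 0 is no difference and 1 means that the treated signal was 2 times the control signal. Each value is given in the order of replicates 1, 2 and 3, and means are followed by the SD over the 3 arrays of a dose. The test was limma with Benjamini-Hochberg adjustment over all 32490 probes tested and a threshold of 0.05. Each ratio was tested against 0. If all arrays carried the same control RNA, the spread of the control animals does not enter, and the labels do not settle this. A dye effect cannot be told apart from the treatment. The spread behind each p-value is that between arrays of pooled retinas. A single estimate per probe is shared by both doses over the 6 arrays and moderated by limma. It is therefore not the SD printed beside a dose mean, and it takes in any difference between slides. In whole retinas, a change in the number of cells of a type and a change in RNA per cell cannot be told apart.

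Chemokines are small secreted proteins that guide leukocytes along a gradient, and they are named by the spacing of conserved cysteines near their amino terminus. Their receptors are G protein-coupled receptors that act through inhibitory G proteins, and a ligand often binds several receptors while a receptor often binds several ligands. In the retina the resident immune cells are microglia, and glia, endothelium and pigment epithelium can also secrete chemokines when the tissue is injured or inflamed.

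Per array, 71.0% to 85.5% of gene spots were bright enough in a channel to count as well above background. Saturation affected 0 probes. PTC replicates 1 and 2 were on slide 1, and PTC replicate 3 was on slide 2 with all 10PTC arrays. The slides therefore divide the PTC group but not the 10PTC group. The skeletal muscle markers Ckm, Acta1, Mb, Myl1, Tnni2 and Myh1, all fell at both doses, with a median of -2.996 at PTC and -2.434 at 10PTC. Their summed Cy5 signal was 2943 to 9083 over the 6 arrays, against 45930 to 48250 in Cy3. The control RNA thus carried more of this signal, and its part in the chemokine ratios was not tested.

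At PTC, 18 member probes of 17 genes were higher than PBS, which is 34.0% of the 53 that could be tested, while 17.1% of all probes tested were called higher (33.0% in either direction). The 6 member probes called lower were 11.3%, against 15.9% of all probes. At 10PTC, 13 probes of 12 genes were higher, or 24.5%, against 14.7% of all probes (27.5% in either direction). There, 5 probes were lower, or 9.43%, against 12.9% of all probes. The median over the tested member probes was 0.08 at PTC and 0.07 at 10PTC, and the median over all probes was 0.0032 and 0.0021. A probe could pass the filter through the treated channel alone, so these shares describe the probes that passed and not the whole family. Among the 32 member probes that were bright enough in Cy3 and in Cy5 on every array, 10 were called higher at PTC and 8 at 10PTC, against 19.9% and 17.2% of all probes under that filter. The way the arrays are centred moves these backgrounds. With median centring in place of loess, 31.4% of all probes were higher and 15.7% lower at PTC, with 19 and 9 of the member probes, and 36.2% were higher and 19.5% lower at 10PTC, with 17 and 8 of the member probes. Both doses may have been set against the same control RNA, so that a gene passing at both is not 2 independent observations.

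**Figure D1:**
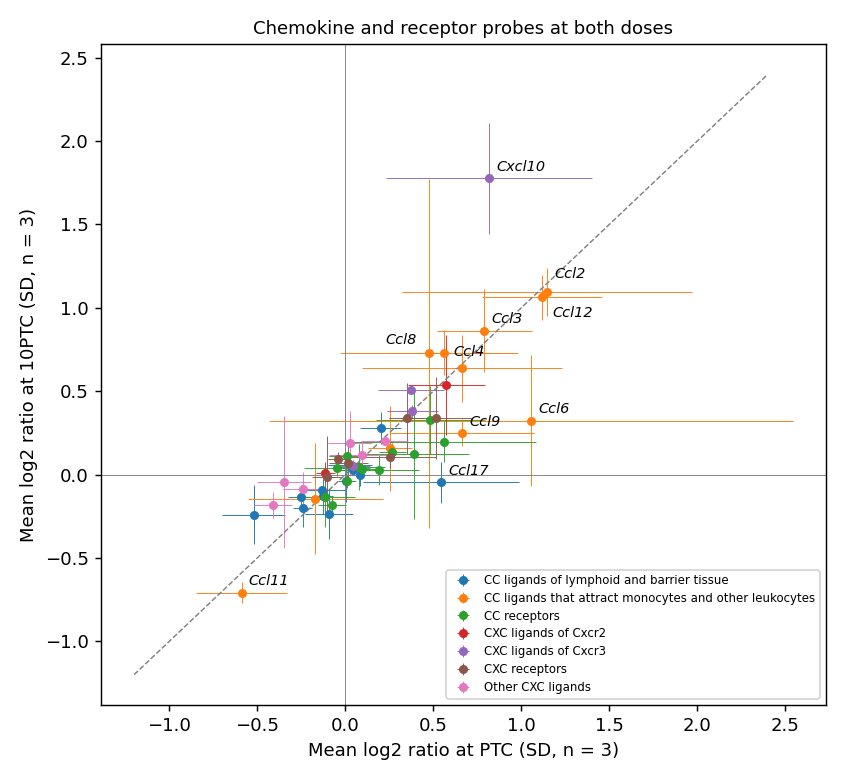
Mean log2 ratio of treated over PBS at PTC (x axis) and at 10PTC (y axis) for the 53 member probes that could be tested, coloured by role, with bars for the SD over 3 arrays and a dashed line where both doses are equal. Cxcl10 lies at 0.82 and 1.78, Ccl2 and Ccl12 lie close to the line above 1, Ccl11 is lowest at -0.59 and -0.71, and Ccl6 has the widest bar at PTC (SD 1.49).

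The CC ligands that attract monocytes and other leukocytes held the most members that rose. Of 14 such genes, 11 could be tested. Ccl2, Ccl12, Ccl7, Ccl3 and Ccl4 were higher at both doses, Ccl9 was higher at PTC, and Ccl11 was lower at both doses. The probes called higher were 54.5% of the 11 at PTC and 45.5% at 10PTC, against 17.1% and 14.7% of all probes tested. The median over the 11 probes was 0.66 at PTC and 0.64 at 10PTC. Ccl7 and Ccl3 passed the filter through the treated channel, with Cy3 well above background on 0 and 1 of 6 arrays. The 10PTC median is the value of Ccl7, so these shares and medians describe only the probes that passed.

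Ccl12, a mouse ligand of Ccr2 that draws monocytes, was measured at 1.17, 0.75 and 1.43 at PTC and at 1.07, 0.93 and 1.20 at 10PTC. All 6 pools were well above 0, and the ranges of the doses overlapped. The means were 1.12 ± 0.34 (adjusted p = 0.0012) and 1.06 ± 0.14 (adjusted p = 0.0018). Its probe lies at chr11:81916764-81916823 on the plus strand in the mm9 coordinates of the array design, and it kept its call under every alternative processing tried (20 at PTC and 19 at 10PTC). Before normalization its net signal in Cy3 was 103 to 134, and in Cy5 it was 232 to 528. The 250 bases before its annotated start, from the RefSeq promoter table (GRCm38.p6, chr11:82101595-82101844, plus strand, 5′ to 3′), are shown because this member kept its calls at both doses under all alternatives. They are in lower case throughout since none of the motifs searched below was found in them.
Ccl12: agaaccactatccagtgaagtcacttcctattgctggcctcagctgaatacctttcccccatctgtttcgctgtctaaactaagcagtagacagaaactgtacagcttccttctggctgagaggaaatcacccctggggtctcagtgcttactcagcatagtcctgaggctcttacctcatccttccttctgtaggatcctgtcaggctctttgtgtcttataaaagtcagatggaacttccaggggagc

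Ccl2, the principal monocyte attractant acting through Ccr2, had 2.05, 0.44 and 0.95 at PTC and 1.26, 1.03 and 0.99 at 10PTC. PTC replicate 1 was highest and PTC replicate 2 lowest of the 6 arrays, with the 10PTC values between them. The means were 1.15 ± 0.82 (adjusted p = 0.013) and 1.09 ± 0.15 (adjusted p = 0.018). This probe (chr11:81850650-81850709, mm9) is printed 10 times on each array, and the SD between its spots on an array was 0.078 to 0.127. The gap between the PTC pools was therefore larger than the spot-to-spot error. Without PTC replicate 1 the PTC mean was 0.70. Without any single 10PTC replicate, the 10PTC value of 1.01 to 1.15 no longer passed the threshold.

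Ccl7, a further Ccr2 ligand encoded next to Ccl2, had 1.31, 0.24 and 0.44 at PTC and 0.61, 0.45 and 0.85 at 10PTC. Again PTC replicate 1 was highest and PTC replicate 2 lowest. Its Cy3 signal was not well above background on any array, so only a bound can be given. Mean treated Cy5 was at least 1.54-fold above control at PTC (adjusted p = 0.028) and at least 1.497-fold at 10PTC (adjusted p = 0.037). Here and below, such a bound sets the mean normalized signal of the bright channel against a floor on each array. That floor is the lowest signal that counted as well above background, or the dim channel's own signal where larger. The bound holds for the mean of a dose and not for each pool, and it leaves out the spread between the arrays. The Cy5 signal of Ccl7 was itself well above background on 2 of 3 PTC arrays, and its mean covers all of them. The call of Ccl7 was lost without PTC replicate 3 at PTC (mean 0.77) and without each of the 10PTC replicates (0.53 to 0.73) or PTC replicate 3 (0.64) at 10PTC. Without PTC replicate 1 its PTC mean was 0.34.

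Ccl3 and Ccl4, neighbouring genes for macrophage inflammatory proteins, both rose. Ccl3 had 1.07, 0.53 and 0.77 at PTC and 0.63, 0.84 and 1.13 at 10PTC. Every pool was above 0.5, and the doses overlapped. At PTC its Cy3 signal was not well above background on any array, and mean treated Cy5 was at least 1.70-fold above control (adjusted p = 0.0034). At 10PTC, where Cy3 was well above background on 1 array, the mean was 0.86 ± 0.25 (adjusted p = 0.0035). Ccl4 had 0.93, 0.37 and 0.38 at PTC and 0.59, 0.74 and 0.86 at 10PTC. Its means were 0.56 ± 0.32 (adjusted p = 0.0085) and 0.73 ± 0.13 (adjusted p = 0.0048). Its Cy3 signal was well above background on 1 of 3 PTC arrays. For Ccl4, PTC replicate 1 was the highest of all 6 arrays while the other PTC pools were the lowest.

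Ccl9, which attracts myeloid cells through Ccr1, had 1.13, 0.37 and 0.48 at PTC and 0.29, 0.16 and 0.30 at 10PTC. The lowest PTC pool was above the highest 10PTC pool. The mean was 0.66 ± 0.41 at PTC (adjusted p = 0.0086) and 0.25 ± 0.08 at 10PTC (adjusted p = 0.18). The difference between the doses, -0.41 with a 95% interval of -0.84 to 0.01, did not pass (adjusted p = 0.63). Without PTC replicate 1 the PTC mean was 0.43, and the 10PTC value, itself unmoved, then passed.

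Ccl11, an eosinophil attractant that signals through Ccr3, went the other way. It had -0.37, -0.53 and -0.87 at PTC and -0.77, -0.65 and -0.70 at 10PTC. All 6 pools were below 0. At PTC the mean was -0.59 ± 0.26 (adjusted p = 0.0035). At 10PTC the treated channel was not well above background on any array, and mean control Cy3 was at least 1.63-fold above treated Cy5 (adjusted p = 0.0027). The 10PTC call held under all 18 alternatives that could be fitted.

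The other ligands of this group that could be tested, Ccl5, Ccl6, Ccl8 and Ccl24, passed at neither dose. Ccl6, a myeloid attractant, had 2.76, 0.07 and 0.33 at PTC and 0.68, 0.39 and -0.10 at 10PTC, and it is given in full, after its values were seen, because a single pool set its mean. PTC replicate 1 stood far above every other array, and the PTC mean of 1.05 ± 1.49 did not pass (adjusted p = 0.11). Ccl8, another monocyte attractant, had a mean of 0.47 ± 0.51 at PTC and 0.73 ± 1.05 at 10PTC (adjusted p = 0.32 and 0.15). Ccl5, a ligand made by T cells among others, had 0.25 ± 0.12 and 0.16 ± 0.25 (adjusted p = 0.069 and 0.23). Ccl24, an eosinophil attractant, had -0.17 ± 0.38 and -0.15 ± 0.33 (adjusted p = 0.43 and 0.51). Ccl1, Ccl20 and Ccl26 were not well above background in either channel on any array.

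**Figure D2:**
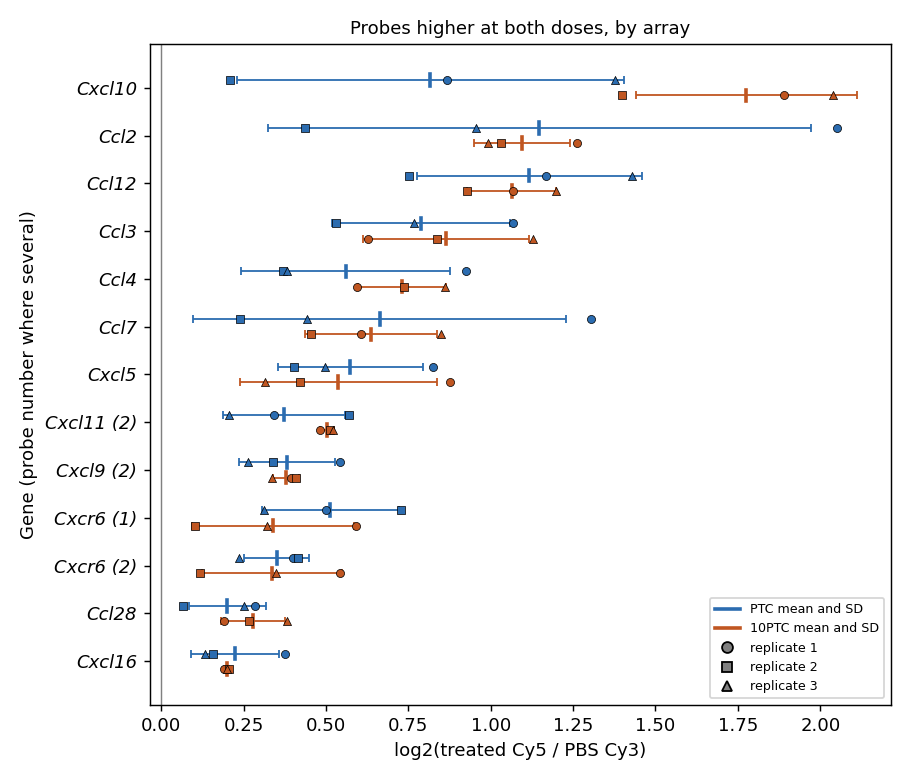
Log2 ratio of treated over PBS on each array (x axis) for the 13 member probes that were higher at both doses, PTC in blue and 10PTC in orange, with the mean as a tick and the SD as a bar; marker shapes give the replicate, and a number after a gene name tells its probes apart. Every point lies above 0, Cxcl10 at 10PTC reaches 2.04, and the PTC bars of Ccl2, Ccl7 and Cxcl10 are the widest.

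The CXC ligands of Cxcr3 are chemokines that interferon induces and that draw activated T cells and natural killer cells. Of their 4 probes that could be tested, 3 were higher at each dose (75%), against 17.1% of all probes at PTC and 14.7% at 10PTC. All 3 genes had a probe that was higher at both doses, but the other tested probe of Cxcl11 was called at neither. Cxcl10 had 0.87, 0.21 and 1.38 at PTC and 1.89, 1.40 and 2.04 at 10PTC. Every 10PTC pool was above every PTC pool, and PTC replicate 2 was the lowest. The mean was 0.82 ± 0.59 at PTC (adjusted p = 0.020) and 1.78 ± 0.34 at 10PTC (adjusted p = 0.0022), the highest 10PTC mean of the family. The PTC call was lost without PTC replicate 1 (mean 0.79) and without PTC replicate 3 (mean 0.54), while the 10PTC call held under all 19 alternatives. The difference between the doses was 0.96, with a 95% interval of 0.29 to 1.63, and did not pass over all probes (unadjusted p = 0.011, adjusted p = 0.59). Net signals before normalization were 98.7 to 118 in Cy3 and 146 to 870 in Cy5.

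Cxcl9 had 0.54, 0.34 and 0.26 at PTC and 0.39, 0.41 and 0.33 at 10PTC with probe A_55_P1977038. All 6 pools were above 0 and the doses overlapped, with means of 0.38 ± 0.15 (adjusted p = 0.0040) and 0.38 ± 0.04 (adjusted p = 0.0054). The 10PTC call was lost without 10PTC replicate 1 (mean 0.37). A second Cxcl9 probe did not pass the filter. Cxcl11 had 0.34, 0.57 and 0.20 at PTC and 0.48, 0.51 and 0.52 at 10PTC with probe A_55_P2160387. Its means were 0.37 ± 0.18 (adjusted p = 0.0066) and 0.50 ± 0.02 (adjusted p = 0.0034), and the 10PTC pools lay within the PTC range. The other Cxcl11 probe, A_55_P2044413, lies beside it in mm9 (chr5:92788640-92788699) and did not pass at either dose, with 0.04 ± 0.10 and 0.05 ± 0.04. Net signals in Cy3 were 81500 to 110900 for the first probe and 4026 to 5218 for the second. A higher signal was thus seen by only 1 of the Cxcl11 probes, and whether that probe reads Cxcl11 alone was not tested.

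Cxcl9, Cxcl10 and Cxcl11 are neighbours on chromosome 5. The means of Cxcl10 and Cxcl9 were 0.82 and 0.38 at PTC and 1.78 and 0.38 at 10PTC, and on PTC replicate 2 Cxcl9 was the higher. This difference between the genes, and any part of their sequence in it, was not tested. The sequences upstream of Cxcl10 and Cxcl9 are shown. They are the 250 bases before the annotated start, from the RefSeq promoter table (GRCm38.p6, both on the minus strand, chr5:92348890-92349139 for Cxcl10 and chr5:92328080-92328329 for Cxcl9), 5′ to 3′, with motif matches in capitals.
Cxcl10: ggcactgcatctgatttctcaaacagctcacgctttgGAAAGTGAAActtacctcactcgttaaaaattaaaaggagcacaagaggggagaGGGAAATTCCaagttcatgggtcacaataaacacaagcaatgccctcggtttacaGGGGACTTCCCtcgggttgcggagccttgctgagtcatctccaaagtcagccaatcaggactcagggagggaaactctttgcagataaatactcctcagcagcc
Cxcl9: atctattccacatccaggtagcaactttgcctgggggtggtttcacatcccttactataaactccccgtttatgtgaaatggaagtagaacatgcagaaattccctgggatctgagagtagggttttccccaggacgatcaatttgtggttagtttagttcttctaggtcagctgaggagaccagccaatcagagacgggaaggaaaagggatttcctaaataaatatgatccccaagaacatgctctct

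The motifs were searched on both strands. They were a repeat of GAAA with a gap of 2 bases, which is a core of the elements that interferon regulatory factors bind, the NF-kappa-B consensus, and TTCNNNGAA, the core that STAT proteins bind. In the Cxcl10 window GAAAGTGAAA lies 213 to 204 bases before the start. GGGAAATTCC lies 159 to 150 bases before it, and GGGGACTTCC and GGGACTTCCC overlap between 104 and 94 bases before it. None of the 3 motifs has a match in the Cxcl9 or Ccl12 windows, which says only that these letters are not there. Of 27025 genes with a window, 3.46% held the GAAA repeat, 8.23% the NF-kappa-B consensus and 8.13% TTCNNNGAA. Of the 53 member genes 38 had a window, and of these 7.89% held the first, 26.3% the second and 10.5% the third. The 10 members with an NF-kappa-B match were Ccl1, Ccl20, Ccl9, Ccr1, Ccr3, Ccr6, Cxcl1, Cxcl10, Cxcl2 and Cxcl3. Of these, Cxcl10 was higher at both doses, Ccl9 was higher at PTC, Ccr3 and Ccr6 passed at neither dose, and the other 6 did not pass the filter. A match is a description of the letters and not a bound site. Ccl2, Ccl4, Ccl5, Ccl7, Ccl11, Ccl24, Ccl26, Ccr7, Ccr10, Cxcl5, Cxcl11, Cxcl16, Cxcl17 and Cxcr5 were among the members not matched in the table.

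The CXC ligands of Cxcr2 attract neutrophils, and most were dim. Cxcl5 had 0.82, 0.40 and 0.50 at PTC and 0.88, 0.42 and 0.31 at 10PTC. Replicate 1 was highest at each dose, all pools were above 0 and the doses overlapped. The means were 0.57 ± 0.22 (adjusted p = 0.0098) and 0.54 ± 0.30 (adjusted p = 0.016), and the 10PTC call was lost without 10PTC replicate 1 (mean 0.37). Its Cy3 signal was well above background on 1 of 3 PTC arrays. Cxcl15, a lung neutrophil attractant, was not called at either dose. At PTC its treated channel was not well above background on any array, so no fold can be given, and its 10PTC mean was 0.01 ± 0.06. Cxcl1, Cxcl2 and Cxcl3 did not pass the filter, and their control channel was not well above background on any array.

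Among the other CXC ligands, Cxcl16 rose, Cxcl14 fell, and Cxcl12 fell by one of its probes. Cxcl16, which exists as a membrane-bound and a soluble ligand of Cxcr6, had 0.38, 0.16 and 0.13 at PTC and 0.19, 0.20 and 0.20 at 10PTC. All pools lay slightly above 0. The means were 0.22 ± 0.13 (adjusted p = 0.020) and 0.20 ± 0.01 (adjusted p = 0.034). The PTC call was lost without PTC replicate 1 (mean 0.15) and the 10PTC call without any single 10PTC replicate (mean 0.20 each time). Cxcl14, a ligand that epithelia and neurons express, had -0.53, -0.39 and -0.32 at PTC and -0.09, -0.23 and -0.23 at 10PTC. All pools were below 0 and the dose ranges did not overlap. The means were -0.41 ± 0.11 (adjusted p = 0.0026) and -0.18 ± 0.08 (adjusted p = 0.045). The difference between the doses was 0.23, with a 95% interval of 0.05 to 0.41, and did not pass (adjusted p = 0.59). The 10PTC call of Cxcl14 was lost under 13 of 19 alternatives, among them those without PTC replicate 2 or 3 (-0.18) and without any single 10PTC replicate (-0.23 to -0.16), and with median centring its 10PTC value was 0.05.

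Cxcl12, the ligand of Cxcr4 that guides progenitor cells and retains leukocytes, had -0.31, -0.11 and -0.31 at PTC and 0.01, -0.07 and -0.20 at 10PTC with probe A_51_P172502. The mean was -0.24 ± 0.11 at PTC (adjusted p = 0.019) and -0.09 ± 0.10 at 10PTC (adjusted p = 0.31). The PTC call was lost without PTC replicate 1 or 3 (mean -0.21 each time), and median centring took it to -0.07. Its other probe, A_55_P1966204, had 0.10 ± 0.19 and 0.12 ± 0.08 and did not pass, so the probes differ in sign. Cxcl13, the B cell attractant, had 0.03 ± 0.12 and 0.19 ± 0.19, and Cxcl17, a mucosal chemokine, had -0.35 ± 0.15 and -0.04 ± 0.40. Neither passed at either dose.

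The CC ligands of lymphoid and barrier tissue were measured by 13 probes of 8 genes, and 12 probes passed the filter, with a median of -0.04 at PTC and -0.07 at 10PTC. At PTC 2 of them were higher and 3 lower (16.7% and 25%), against 17.1% and 15.9% of all probes. At 10PTC 1 was higher and 2 lower (8.33% and 16.7%), against 14.7% and 12.9% of all probes. Ccl17, a ligand of Ccr4 made by dendritic cells, had 1.04, 0.19 and 0.41 at PTC and -0.04, 0.07 and -0.17 at 10PTC. All PTC pools were above all 10PTC pools, which lay around 0. The PTC mean was 0.54 ± 0.44 (adjusted p = 0.023) and the 10PTC mean -0.05 ± 0.12 (adjusted p = 0.83). The difference was -0.59, with a 95% interval of -1.06 to -0.13, and did not pass (unadjusted p = 0.019, adjusted p = 0.59). The PTC value was 0.30 without PTC replicate 1, and without PTC replicate 3 the call was lost (mean 0.61). Ccl28, an epithelial ligand of Ccr10, had 0.29, 0.07 and 0.25 at PTC and 0.19, 0.27 and 0.38 at 10PTC. All pools were above 0, with means of 0.20 ± 0.12 (adjusted p = 0.035) and 0.28 ± 0.10 (adjusted p = 0.014), and at PTC its Cy3 signal was well above background on 1 of 3 arrays. The PTC call of Ccl28 was lost in 9 of 19 alternatives, among them those without PTC replicate 1 (0.16), without PTC replicate 3 (0.18), and without 10PTC replicate 2 or 3 (0.20). Its 10PTC call was lost without 10PTC replicate 1 (0.32) or 3 (0.23).

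The ligands of Ccr7, which bring dendritic and naive T cells to lymph nodes, held most of the lower calls of this group. Ccl21a had -0.71, -0.35 and -0.50 at PTC and -0.25, -0.06 and -0.41 at 10PTC. Ccl21b had -0.33, -0.18 and -0.24 at PTC and -0.17, -0.05 and -0.18 at 10PTC. For both, PTC replicate 1 was lowest and 10PTC replicate 2 nearest to 0. At PTC the means were -0.52 ± 0.18 (adjusted p = 0.0046) for Ccl21a and -0.25 ± 0.08 (adjusted p = 0.0090) for Ccl21b. Neither passed at 10PTC, with -0.24 ± 0.18 and -0.13 ± 0.07 (adjusted p = 0.070 and 0.082). The 10PTC value of Ccl21a, itself unmoved, passed without PTC replicate 1 and within slide 2. The 2 probes match at 54 of 56 aligned bases, so each may read both copies and they are not separate evidence. The difference between the doses for Ccl21a was 0.28, with a 95% interval of 0.00 to 0.56, and did not pass (unadjusted p = 0.048, adjusted p = 0.62). With median centring the PTC value of Ccl21b was -0.09 and did not pass.

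Ccl19, the other Ccr7 ligand, was lower by one of its 3 probes. Probe A_55_P2099742 had -0.28, -0.27 and -0.18 at PTC and -0.26, -0.07 and -0.28 at 10PTC. All pools were below 0, with means of -0.24 ± 0.06 (adjusted p = 0.013) and -0.20 ± 0.11 (adjusted p = 0.030). The 10PTC call was lost without 10PTC replicate 1 (mean -0.17) or 3 (mean -0.16). The other probes had -0.13 and 0.00 at PTC and -0.13 and -0.04 at 10PTC, and neither passed. Ccl19 and Ccl21a lie among near-identical copies on chromosome 4, so their probes may read more than one gene.

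Ccl27a, a skin chemokine that binds Ccr10, was measured by 4 probes. Probe A_55_P2068731 had -0.08, -0.23 and 0.03 at PTC and -0.39, -0.10 and -0.21 at 10PTC. Only the 10PTC mean of -0.23 ± 0.15 passed (adjusted p = 0.045), and not without 10PTC replicate 1 (-0.15), 10PTC replicate 3 (-0.25) or PTC replicate 3 (-0.23). With median centring it was -0.01. The other 3 probes lay between -0.13 and 0.04 at PTC and between -0.09 and 0.05 at 10PTC and did not pass. Ccl25, the thymus-expressed ligand of Ccr9, had 0.08 ± 0.06 and 0.00 ± 0.06 and did not pass. Ccl22, which shares Ccr4 with Ccl17, was not well above background in either channel on any array.

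**Figure D3:**
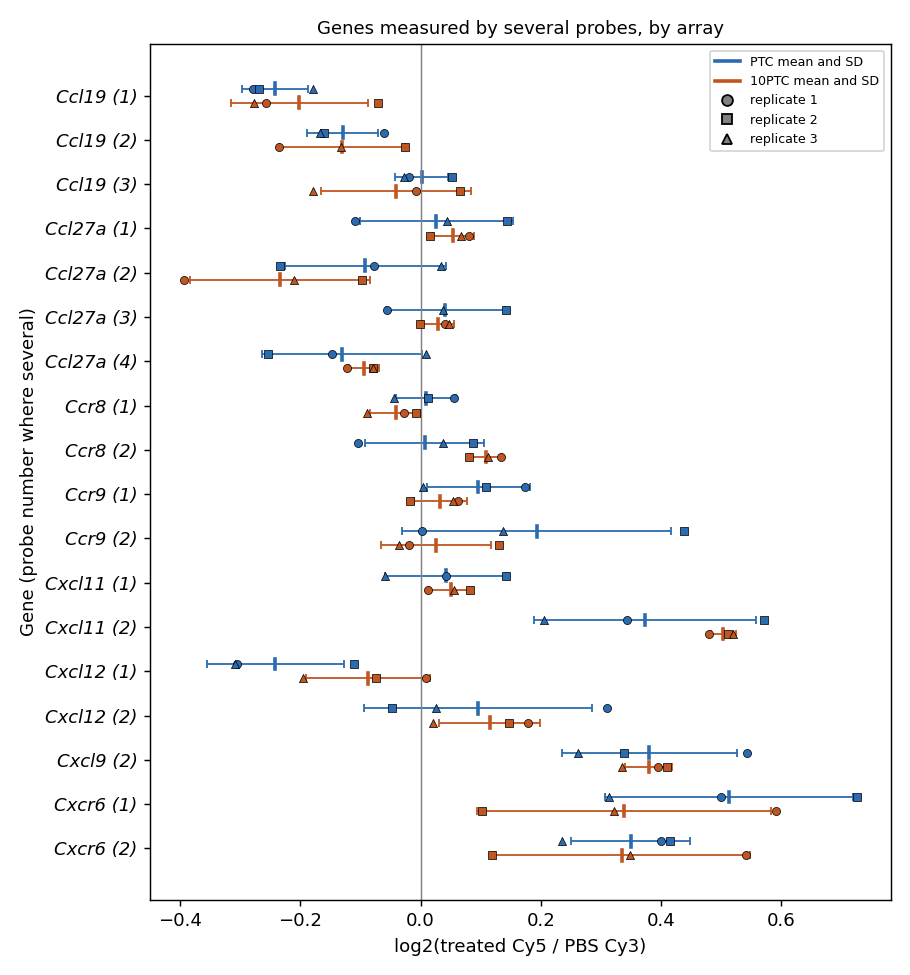
Log2 ratio of treated over PBS on each array (x axis) for genes with more than 1 probe, 1 line per probe that could be tested, PTC in blue and 10PTC in orange, with the mean as a tick and the SD as a bar. The Cxcr6 probes lie together above 0, whereas the Cxcl11 probes (means 0.04 and 0.37 at PTC) and the Cxcl12 probes (-0.24 and 0.10 at PTC) lie apart.

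The CC receptors were mostly dim. Of 13 probes of 11 genes, 12 passed the filter, and 3 were bright enough in Cy3 and in Cy5 on every array. At PTC 3 were higher (25%, against 17.1% of all probes), among them Ccr7 and Ccr1l1. At 10PTC none was higher, against 14.7% of all probes, and Ccr10 was lower (8.33%, against 12.9%). The median was 0.09 at PTC and 0.04 at 10PTC.

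Ccr7, the receptor of Ccl19 and Ccl21, had 1.16, 0.33 and 0.20 at PTC and 0.32, 0.19 and 0.08 at 10PTC. PTC replicate 1 stood above all other arrays, but its Cy3 signal was well above background on only 1 of 3 PTC arrays. The means were 0.56 ± 0.52 (adjusted p = 0.034) and 0.20 ± 0.12 (adjusted p = 0.39). Without PTC replicate 1 the PTC mean was 0.26, and the 10PTC value, itself unmoved, then passed. The PTC call was lost without any single 10PTC replicate, which changes only the spread of the fit. Ccr1l1, a receptor gene related to Ccr1, had 0.24, 0.21 and 0.36 at PTC and 0.12, 0.19 and 0.09 at 10PTC. The PTC pools were all above the 10PTC pools, but its control channel was not well above background on any PTC array and its treated channel was on 1, so no fold can be given. Its adjusted p was 0.0064 at PTC and 0.073 at 10PTC. With median centring its PTC value was 0.06 and its 10PTC value -0.20.

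Ccr10, the receptor of Ccl27 and Ccl28, had -0.11, -0.13 and 0.02 at PTC and -0.22, -0.12 and -0.20 at 10PTC. The means were -0.08 ± 0.08 (adjusted p = 0.26) and -0.18 ± 0.05 (adjusted p = 0.029), and the doses overlapped. The 10PTC call was lost without 10PTC replicate 1 (-0.16) or 3 (-0.17). Ccr2, the receptor of Ccl2, Ccl7 and Ccl12 on monocytes, passed at neither dose. At PTC its control channel was not well above background on any array. The ratios were 0.64, 0.05 and 0.48, and the bound on their mean was 1.30-fold. That bound leaves out the spread between the arrays, and the PTC ratio did not pass (adjusted p = 0.084). The 10PTC mean was 0.12 ± 0.39 (adjusted p = 0.58). The remaining CC receptor probes, of Ccr3, Ccr4, Ccr6, Ccr8 and Ccr9, had means between -0.14 and 0.19, and none passed. Ccr1 was not well above background in either channel on any array.

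Of the CXC receptors, Cxcr6 was the one that rose. Its probe A_55_P1962209 had 0.50, 0.73 and 0.31 at PTC and 0.59, 0.10 and 0.32 at 10PTC, and probe A_55_P2165199 had 0.40, 0.41 and 0.24 at PTC and 0.54, 0.12 and 0.35 at 10PTC. All pools were above 0, and 10PTC replicate 2 was lowest with both. The first probe had means of 0.51 ± 0.21 (adjusted p = 0.0093) and 0.34 ± 0.25 (adjusted p = 0.045). The second had 0.35 ± 0.10 (adjusted p = 0.014) and 0.34 ± 0.21 (adjusted p = 0.020). These probes share 50 of their 60 bases (chr9:123720709-123720778, mm9) and are 1 measurement rather than 2. At 10PTC both calls were lost without 10PTC replicate 1 (0.21 and 0.23) or 3 (0.35 and 0.33), and the second probe's PTC call was lost without PTC replicate 2 (0.32). Cxcr6 marks memory T cells and natural killer T cells.

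Cxcr4, the receptor of Cxcl12, had 0.25 ± 0.26 at PTC and 0.11 ± 0.07 at 10PTC (adjusted p = 0.063 and 0.40). Cxcr3, the receptor of Cxcl9, Cxcl10 and Cxcl11, had 0.02 ± 0.11 and 0.07 ± 0.11 and passed at neither dose (adjusted p = 0.86 and 0.40), and each of its channels was well above background on 1 of 3 PTC arrays. Cxcr1 had -0.04 ± 0.05 and 0.09 ± 0.04. Cxcr7, the scavenger of Cxcl12 now named Ackr3, had -0.11 ± 0.08 and -0.01 ± 0.24. None of these was called. Cxcr2 and Cxcr5 were not well above background in either channel on any array.

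**Figure D4:**
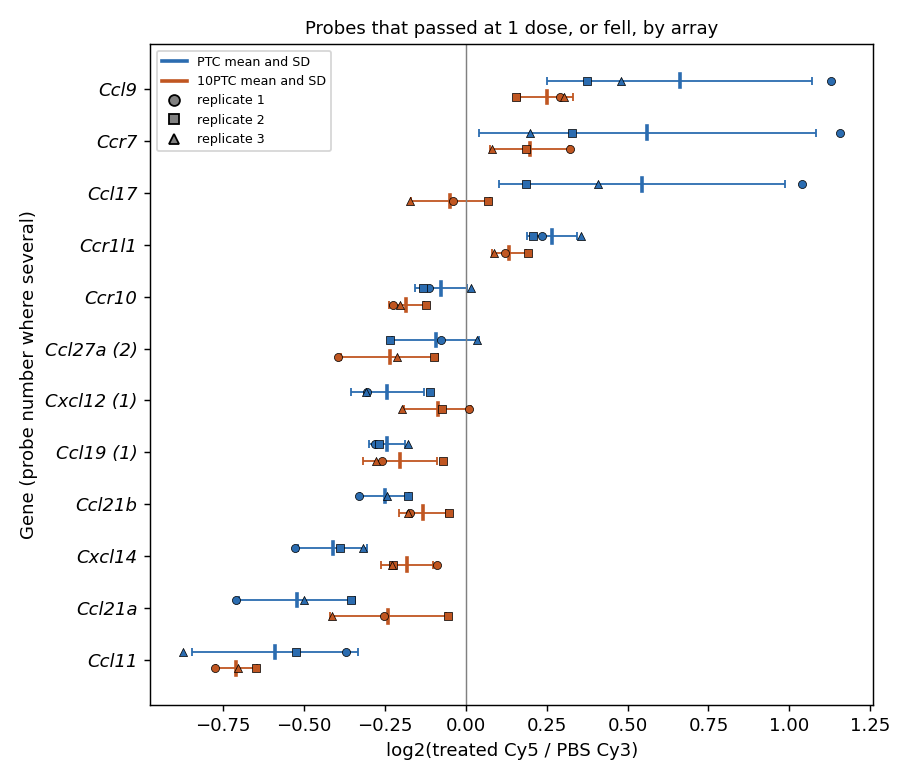
Log2 ratio of treated over PBS on each array (x axis) for the named member probes that passed at 1 dose or were lower, PTC in blue and 10PTC in orange, with the mean as a tick and the SD as a bar. Ccl9 and Ccl17 at PTC lie above all their 10PTC points, and Ccl11, Cxcl14 and Ccl21a lie below 0 on all 6 arrays.

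The doses were then compared with each other. No member probe differed between 10PTC and PTC by limma, and neither did any of the 32490 probes (0 called). At an unadjusted p under 0.05 there were 4 member probes, of Cxcl10, Ccl17, Ccl21a and Cxcl14, and 2604 probes in all, and the lowest adjusted p of a member was 0.59. A p that misses the threshold does not show that the doses act alike, and the intervals above give the sizes that remain possible. The PTC arrays varied more than the 10PTC arrays. The PTC arrays are divided between slides 1 and 2, while the 10PTC arrays are all on slide 2. Pool and slide therefore cannot be told apart in this spread, and dose and slide are partly mixed in the comparison of the doses. The SD was larger at PTC for 36 of the 53 tested member probes, with a median SD of 0.145 at PTC and 0.11 at 10PTC. Of the 18 probes higher at PTC, 12 were highest in PTC replicate 1 and 12 were lowest in PTC replicate 2. Over all 53 tested member probes the median was 0.14, 0.11 and 0.04 on the PTC arrays and 0.09, 0.08 and 0.05 on the 10PTC arrays. Over the 13 probes chosen for being higher at both doses it was 0.82, 0.40 and 0.38, and 0.59, 0.45 and 0.52.

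Since PTC replicates 1 and 2 share slide 1, the first 2 of each set of PTC values are those within slide 1 and the third is the one within slide 2. A fit within slide 1 has 2 arrays, and it called 1 member probe higher at PTC, that of Ccl12, and 0.545% of all probes. Within slide 2 there is 1 PTC array, so its spread is taken from the 10PTC arrays alone. That fit called 6 member probes higher at PTC, those of Ccl2, Ccl3, Ccl9, Ccl12, Cxcl10 and Ccr1l1, and 3.24% of all probes. Both fits have fewer arrays than the main one, so a call lost in them does not show an effect of the slide. With the slide as a block, 13 member probes were higher at PTC, against 11.5% of all probes. At 10PTC 5 were, those of Ccl4, Ccl12, Cxcl9, Cxcl10 and Cxcl11, against 2.08% of all probes. Ccl11 was the member called lower within slide 2 at PTC and with the block at 10PTC.

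Many chemokine genes lie in clusters, and members of a cluster did not all move alike. On chromosome 11, chr11:81850650-83478111 in mm9 holds 11 members from Ccl2 to Ccl4, of which 10 could be tested. At PTC 6 were higher and 1 lower, and at 10PTC 5 were higher and 1 lower. Over all probes 17.1% were higher and 15.9% lower at PTC, and 14.7% and 12.9% at 10PTC, and the counts of the other clusters are to be read against the same shares. Ccl11, the one that fell, lies between Ccl7 and Ccl12, which rose. The CXC ligand cluster on chromosome 5, chr5:91190490-92788699, has 10 probes of 8 genes. Of the 6 probes that could be tested, 4 were higher at each dose, those of Cxcl5, Cxcl9, Cxcl10 and Cxcl11. The other Cxcl11 probe was called at neither dose. The receptor cluster on chromosome 9 has 9 probes of 7 genes, and of 8 tested 4 were higher at PTC and 2 at 10PTC. At each dose 2 of these are the overlapping Cxcr6 probes, which are 1 measurement. On chromosome 4, chr4:41716345-42250164 holds 8 probes of Ccl27a, Ccl21a and Ccl19, of which none was higher and 2 were lower at each dose. These are array-design coordinates of the probes. In which exon or untranslated region a probe lies was not analysed here.

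Chemokine system genes with other names were taken from a list, with the brightest probe for each gene. The counts of this list and the next ones stand beside 17.1% of all probes higher and 15.9% lower at PTC, and 14.7% and 12.9% at 10PTC. Of 15 atypical receptors and other family members, 12 were measured. At PTC 1 rose and 5 fell, and at 10PTC 2 rose and 4 fell, with a median of -0.11 and -0.18. Cx3cr1, the fractalkine receptor of microglia, had 1.82, 0.88 and 1.34 at PTC and 0.97, 1.06 and 1.20 at 10PTC. It rose by 1.34 ± 0.47 (adjusted p = 0.0014) and 1.07 ± 0.11 (adjusted p = 0.0038), with every pool high. Its ligand Cx3cl1, made by neurons, fell on every array, with means of -0.60 ± 0.25 (adjusted p = 0.0039) and -0.34 ± 0.13 (adjusted p = 0.031). Ppbp, a platelet chemokine, fell with -0.88 ± 0.38 and -0.97 ± 0.11 (adjusted p = 0.0029 at each dose). Mif, a cytokine that can act on Cxcr2 and Cxcr4, fell with -0.35 ± 0.08 (adjusted p = 0.0031) and -0.20 ± 0.06 (adjusted p = 0.022). Pf4, a platelet and macrophage chemokine outside the naming rule and chosen after its values were seen, had 2.18, -1.03 and -0.16 at PTC and -0.38, -0.40 and -0.75 at 10PTC. Only PTC replicate 1 was high, and Pf4 passed at neither dose.

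Genes of signalling below the receptors moved in both directions. Of 38 listed, 37 were measured, 12 rose and 10 fell at PTC, and 8 rose and 8 fell at 10PTC, with medians of 0.02 and 0.04. Over all probes 33.0% were called at PTC and 27.5% at 10PTC. Jak3, a kinase of cytokine receptors, rose by 0.36 ± 0.04 and 0.49 ± 0.11 (adjusted p = 0.0032 and 0.0017). Tiam1, an exchange factor for Rac, had -0.47 ± 0.07 and -0.18 ± 0.07 (adjusted p = 0.0011 and 0.028), and Rasgrp2, one for Rap1, had -0.67 ± 0.14 and -0.49 ± 0.15 (adjusted p = 0.0013 and 0.0044). Both fell at both doses.

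Of 27 genes listed for the induction of chemokine genes, 23 were measured. The list holds cytokines, transcription factors, the NF-kappa-B regulators Nfkbia and Nfkbiz, and the adaptors Myd88 and Ticam1. At PTC 10 rose and 1 fell, and at 10PTC 11 rose and none fell, with medians of 0.21 and 0.27. Cebpd, an acute-phase transcription factor, rose by 2.03 ± 0.76 at PTC (adjusted p = 0.0017) and 2.63 ± 0.24 at 10PTC (adjusted p = 0.0012). The interferon regulatory factors Irf8, Irf9 and Irf1 also rose. Irf8, which macrophages express, had 1.13 ± 0.63 and 1.17 ± 0.05 (adjusted p = 0.0053 and 0.0062). Irf9, a partner of STAT proteins in the interferon response, had 0.81 ± 0.51 and 0.92 ± 0.12 (adjusted p = 0.0086 and 0.0077). Irf1 had 0.86 ± 0.53 and 0.63 ± 0.19 (adjusted p = 0.0095 and 0.032). Of the cytokines, Il1b had 0.37 ± 0.26 (adjusted p = 0.019) and 0.30 ± 0.09 (adjusted p = 0.045) and rose at both doses, and it is named after its values were seen. Tnf and Il17a were called at neither dose, and Il1a, Il6, Ifnb1 and Ifng did not pass the filter.

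Markers of leukocytes were set beside the chemokines. Of 12 markers of microglia and macrophages 9 rose at PTC and 8 at 10PTC, with none lower, while 17.1% and 14.7% of all probes were higher. Their median was 0.84, 0.39 and 0.60 on the PTC arrays and 0.38, 0.33 and 0.55 on the 10PTC arrays, and their summed signal was 31430 to 35270 in Cy5 at PTC and 29450 to 31080 at 10PTC against 17970 to 22250 in Cy3. Trem2, Tyrobp and Aif1, which microglia and macrophages express, had 1.91 ± 0.80, 1.68 ± 0.73 and 1.24 ± 0.52 at PTC and 1.63 ± 0.06, 1.47 ± 0.15 and 1.08 ± 0.17 at 10PTC. The part of these cells in the chemokine ratios was not tested.

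Of 8 neutrophil markers 7 were measured, none was called at PTC, and Mpo alone was called at 10PTC (0.16 ± 0.04, adjusted p = 0.034). Their summed signal was 2029 to 4573 in Cy5 at PTC and 2321 to 2679 at 10PTC against 2204 to 2556 in Cy3. S100a8 and S100a9, chosen after their values were seen, had 2.63 and 2.55 on PTC replicate 1, and neither was called. On that array the granule and surface markers Camp, Ltf, Elane and Ly6g had -0.19, -0.11, -0.05 and -0.02, so the markers did not move together. Of 9 T and B cell markers 6 were measured, and Cd3g, Ms4a1 and Trac were not. Cd3e fell at both doses, Cd4 fell at 10PTC, and none rose. Their summed signal differed between the slides in both channels. It was 3319 and 3456 in Cy5 against 3721 and 3650 in Cy3 on slide 1, and 7526 to 9360 against 10010 to 10970 on slide 2, with Cy5 below Cy3 on every array.

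Markers of the retina's own cells were present in both channels. Of 6 Muller glia markers 3 rose and 1 fell at PTC and 4 rose and 1 fell at 10PTC. Of 6 rod markers Sag was the one called, higher at both doses. Of 6 endothelial markers Vwf rose at both doses and Cldn5 fell at PTC. The labels name the tissue as retina, and the rod markers' summed signal was 451800 to 596700 in Cy5 and 462800 to 530400 in Cy3.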

How the data were processed

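RNA of pooled retinas was hybridised to 6 two-colour arrays (Agilent design 026655). For each array the authors deposited scanner output with an intensity per spot and channel and a log10 ratio. It was made with Agilent Feature Extraction 10.7.3.1 per the file headers, or 9.3.2.1 per the submitters' processing notes. A table of log2 ratio values was deposited too. Set against the scanner files' log10 ratio, its columns had r of 0.983 to 1 and a slope of 3.32, so that it runs as Cy5 over Cy3, and how it was centred is not stated.

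Mean signals and median local backgrounds went through limma's normexp correction with an offset of 50, then loess normalization per array, in limma 3.58.1 under R 4.3.3, with 1377 control spots at weight 0 and outlier spots (185 to 274 per array) left out. The offset draws ratios of dim probes towards 0. Spots of a probe were averaged, and probes were tested one by one. A probe was tested if Cy3 or Cy5 was well above background on 3 or more of the 6 arrays, which left out 6939 of 39429. Median signals were 153 to 221 in Cy3 and 187 to 347 in Cy5 before subtraction, against backgrounds of 26 to 29 and 47 to 48, and this sets the precision. A limma model had 1 coefficient per dose, 4 residual and 3.61 prior degrees of freedom. On simulated data with 200 changed probes among 32490, it recovered 58% of 1.25-fold, 92% of 1.5-fold and 99% of 2-fold changes for PTC against PBS with 13 false calls, and 14%, 82% and 100% for 10PTC against PTC with 8.

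Gene names are those of the array files; for the lists, 26055 probes were matched to RefSeq by accession, 3195 by symbol and 930 by synonym, and 9249 kept the file's name. Members with a probe called at either dose, and Ccl12, Ccl3, Cxcl10 and Cxcl16, are given on every array, other members by mean or range, and up to 4 genes per list by smallest p at PTC. Some genes that meet this rule are not reported here. The members and lists were chosen with earlier results of these data known. Replicate numbers of the doses were checked for pairing by the correlation of deviations from the group means, which was -0.27, 0.14 and 0.18, so that they were not taken as pairs.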

Additional observations from a re-analysis of the deposited data

Results flagged for a closer look

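Member probes left out by the filter on dim probes still gave signal in the treated channel. The Cxcl1 probe was well above background in Cy5 on 1 of 6 arrays and in Cy3 on none. The second Cxcl9 probe, A_51_P461665, was well above background in Cy5 on 2 arrays and in Cy3 on 1. Neither was tested.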

How the results depend on the processing

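The alternatives changed the signal (processed signals of the scanner software, unsubtracted signals, offset 0, the authors' deposited table), the centring (median), the filter, the handling of outlier spots, the probe per gene (brightest), the design (replicate number or slide as a block, fits within slides, trended and robust moderation) or left out 1 array. Over them, 645 of the values of called member probes kept direction and call, 156 lost the call and 1 changed sign. The cause of these changes was not tested, apart from fewer arrays or probes where the alternative removes them.

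Of 18 member probes higher at PTC (17.1% of all probes), 10 were called among probes well above background in both channels (19.9% of all probes). The count was 1 within slide 1 (0.545%) and 13 to 19 with an array left out (9.55% to 15.7%). Probes lower at PTC, 6 in the main test (15.9% of all probes), numbered 0 within slide 1 (0.459%) and 5 to 7 with an array left out (9.15% to 14.5%). Probes higher at 10PTC, 13 in the main test (14.7% of all probes), numbered 8 with processed signals (8.45%), with the authors' table (9.77%) and with both channels above background (17.2%). They numbered 5 with the slide block (2.08%) and 5 to 16 with an array left out, with 5 without 10PTC replicate 1 (2.78%) and 8 without 10PTC replicate 3 (3.12%). Probes lower at 10PTC, 5 in the main test (12.9% of all probes), numbered 1 with processed signals (8.12%), the authors' table (7.62%), the replicate block (8.76%) or the slide block (1.5%). They numbered 3 with an offset of 0 (9.58%) or the brightest probe (13.3%), and 8 with median centring (19.5%). With an array left out they numbered 1 to 6, with 3 without PTC replicate 3 (10.3%) and 1 without 10PTC replicate 1 (2.11%) or 3 (2.62%). The comparison of the doses gave 0 under every alternative. Replicate number as a block, which pairs nothing here, gave 19 higher (13% of all probes) and 6 lower (11.9%) at PTC and 12 higher (10.1%) at 10PTC.

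Processed signals, which change several steps at once, moved some sizes by over 1.5 times. With processed signals the PTC and 10PTC values were 2.90 and 2.82 for Ccl3, 1.80 and 1.59 for Ccl4, 2.08 and 1.63 for Ccl7, 2.59 and 1.15 for Cxcl5, and -1.98 and -2.38 for Ccl11, and the PTC value was 1.93 for Ccr7. The values of Cxcl11 fell to 0.21 and 0.33 with processed signals and did not pass, and those of Ccl7 and Cxcl5 at 10PTC and of Ccr7 and Ccr1l1 at PTC did not pass there either.

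One called value changed sign, Cxcl14 at 10PTC (0.0481 with median centring). Values not called that changed sign were Ccl17 at 10PTC (0.0556 with the slide block, and -0.106 to 0.0158 with an array left out), Ccl21b (0.10) and Cxcl12 (0.12) at 10PTC with median centring, Ccr1l1 at 10PTC (-0.20 with median centring), Ccl27a at PTC (0.0757 with median centring, 0.0345 within slide 2) and Ccr10 at PTC (0.0171 within slide 2).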
